A study of Chlamydomonas reinhardtii with 9 samples.

Results

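Acetate is the organic carbon source of Tris Acetate Phosphate (TAP) medium, in which all of these Chlamydomonas cultures grew, and 5 genes for its use were followed here through every library. They were chosen as named loci: ACS3 (Cre07.g353450), CIS2 (Cre03.g149100), ICL1 (Cre06.g282800), MAS1 (Cre03.g144807) and PCK1 (Cre02.g141400), 5 of the 17893 genes in the matrices. All 5 were detected in all 9 libraries, and none is on the study's gene lists that were read. The diurnal list was read only in part, for 1998 genes, and the mating-type lists were not read. Whether the 5 genes are in the unread parts was not checked.

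Acetyl-CoA synthetase (ACS) joins acetate to coenzyme A. In the glyoxylate cycle, citrate synthase (CIS) brings acetyl-CoA onto oxaloacetate, isocitrate lyase (ICL) splits isocitrate into succinate and glyoxylate, and malate synthase (MAS) joins glyoxylate to another acetyl-CoA, so that the carbon lost as carbon dioxide in the tricarboxylic acid cycle is kept. Phosphoenolpyruvate carboxykinase (PCK) then turns oxaloacetate into phosphoenolpyruvate, the entry to sugar synthesis. In the v5.5 assembly, ACS3 lies on chromosome 7 from 5822819 to 5829894 and CIS2 on chromosome 3 from 1129580 to 1134612. ICL1 lies on chromosome 6 from 5284370 to 5288359, MAS1 on chromosome 3 from 356536 to 361981, and PCK1 on chromosome 2 from 7897189 to 7902738. The 5 loci are therefore on 4 chromosomes.

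Cells were profiled on the 10x Chromium platform, which reads the 3′ ends of polyadenylated transcripts and counts each molecule by its unique molecular identifier (UMI). Experiment 1 used CC-5390, a strain without a cell wall (cw15 arg7-8::ARG7, MT+), kept for about a day without iron (Fe−), kept with iron (Fe+), or mixed from both cultures in equal cell numbers (Mix). Experiment 2 used CC-5390 without iron (Fe−), without nitrogen but with iron (N−, libraries R1 and R2) and with both (Fe+), and the walled strain CC-4532 (CW, MT-) in Fe− and Fe+. Both strains were laboratory stocks grown in constant light, the 2 N− libraries are described as technical duplicates and were treated as 1 sample, and strain, mating type and cell wall cannot be told apart.

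The libraries held 2064 to 11798 cells and 7576775 to 52436795 UMIs, with medians of 1388 to 5843 UMIs per cell. The iron-responsive gene FEA1 checked the labels: it stood at 2202 CPM (UMIs of the gene scaled by the total UMIs of the library) in Fe− against 339.9 CPM in Fe+ of experiment 1, at 618 CPM in Fe− against 132 CPM in Fe+ of CC-5390 in experiment 2, and at 582 CPM in Fe− against 16.6 CPM in Fe+ of CC-4532. DGTT1, an acyltransferase gene known to respond to N deficiency, stood at 122 and 139 CPM in N− R1 and N− R2, against 0.558 CPM in Fe+ of the same experiment. Any 2 libraries shared 0 to 40 cell barcodes, at most 0.436% of the smaller library. CPM is a share of all UMIs of a library, so less of a transcript and more of the others cannot be told apart, and intervals given below are 95% intervals that cover counting error only.

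Among the 5 genes, ICL1 varied most between libraries and ACS3 least. ICL1 spanned 44.3-fold, MAS1 11.3-fold, PCK1 6.26-fold, CIS2 5.34-fold and ACS3 4.48-fold between their lowest and highest library. ICL1 and MAS1 were both highest in Fe+ of experiment 1 and lowest in N− R1, and PCK1 was highest in the same Fe+ library. CIS2 was ordered otherwise, with its highest levels in the N− libraries. These levels are descriptions of 9 libraries in CPM, and levels were not compared between genes. Factors by trimmed mean of M-values (TMM), which scale libraries for composition, ran from 0.436 in Fe+ of CC-4532 to 1.86 in N− R2. The order of libraries in CPM can therefore change after such scaling.

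**Figure D1:**
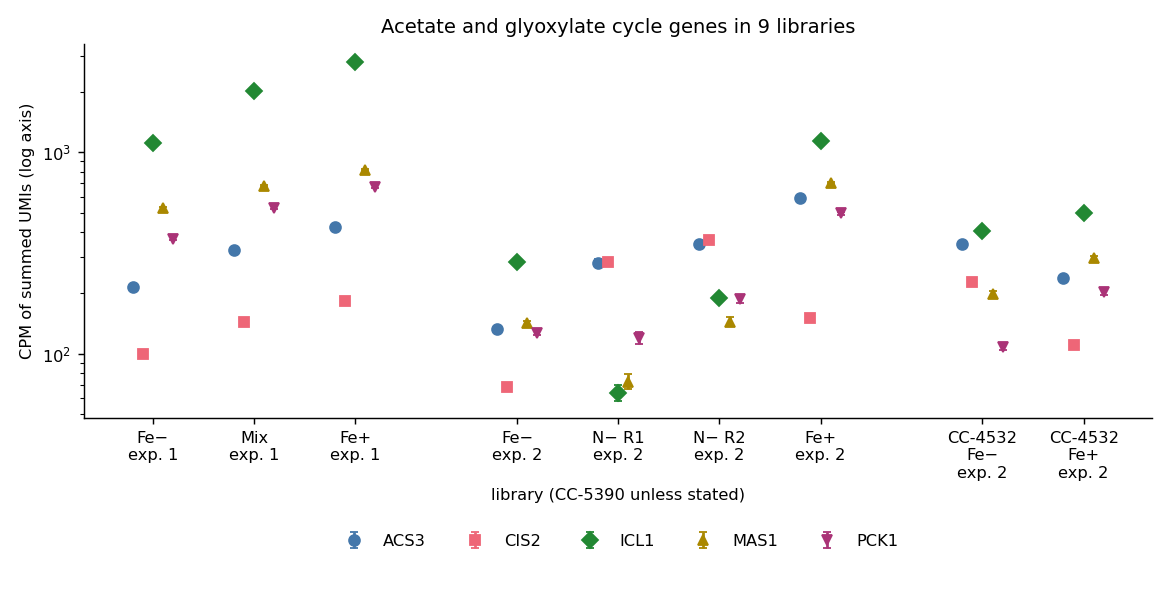
Level of each gene in each library, in CPM on a log axis, with 95% Poisson intervals that are mostly smaller than the symbols. ICL1 runs from 63.6 CPM in N− R1 to 2819.5 CPM in Fe+ of experiment 1, while CIS2 peaks at 366 CPM in N− R2.

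The entry step, ACS3, stood at 214 CPM in Fe−, 326 CPM in Mix and 427 CPM in Fe+ of experiment 1. In experiment 2 it stood at 132 CPM in Fe−, 282 and 349 CPM in N− R1 and R2, and 592 CPM in Fe+. CC-4532 had 349 CPM in Fe− and 236 CPM in Fe+. ACS3 was thus lower in Fe− than in Fe+ in both experiments with CC-5390 and higher in Fe− than in Fe+ in CC-4532.

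CIS2, the citrate synthase, stood at 99.4 CPM in Fe−, 144 CPM in Mix and 183 CPM in Fe+ of experiment 1. Its levels in experiment 2 were 68.4 CPM in Fe−, 284 and 366 CPM in N− R1 and R2, and 150.3 CPM in Fe+. In CC-4532 it had 228 CPM in Fe− and 110.4 CPM in Fe+. In CPM the N− libraries were the highest of the series. After TMM scaling, CIS2 was at 1.01 in N− and 1.32 in Fe+ of CC-4532, each relative to Fe+ of CC-5390 in experiment 2. CIS2 took the same directions in iron deficiency as ACS3.

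For ICL1, the committed step of the glyoxylate cycle, experiment 1 gave 1111 CPM in Fe−, 2017 CPM in Mix and 2819.5 CPM in Fe+. Experiment 2 gave 284 CPM in Fe−, 63.6 and 189 CPM in N− R1 and R2, and 1132 CPM in Fe+. CC-4532 gave 405 CPM in Fe− and 502 CPM in Fe+. In CPM, the Fe− library of experiment 1 and the Fe+ library of experiment 2 were nearly level. By that measure, the difference between experiments was about as large as that between iron conditions. The TMM factors of the same libraries were 1.39 and 0.785, so they would not be level after TMM scaling.

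MAS1, whose enzyme follows ICL in the cycle, stood at 526 CPM in Fe−, 682 CPM in Mix and 816 CPM in Fe+ of experiment 1. It stood at 142 CPM in Fe−, 72.5 and 144 CPM in N− R1 and R2, and 700.0 CPM in Fe+ of experiment 2. The walled strain had 199 CPM in Fe− and 297 CPM in Fe+. Mix lay between Fe− and Fe+ for MAS1, as it did for the other 4 genes.

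PCK1, at the entry to gluconeogenesis, stood at 372 CPM in Fe−, 530.4 CPM in Mix and 675 CPM in Fe+ of experiment 1. Experiment 2 had 126 CPM in Fe−, 119.8 and 187 CPM in N− R1 and R2, and 497 CPM in Fe+. CC-4532 had 108 CPM in Fe− and 203 CPM in Fe+. PCK1 was lower in Fe− than in Fe+ in all 3 pairs of libraries.

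The first comparison asked how iron deficiency altered these genes in CC-5390, with 2 Fe− and 2 Fe+ libraries. All 5 genes had both Fe− libraries below both Fe+ libraries, an arrangement found for 9.42% of the 15370 genes with at least 20 UMIs. In experiment 1, the Fe−/Fe+ ratio of CPM was 0.501 for ACS3, 0.543 for CIS2, 0.394 for ICL1, 0.644 for MAS1 and 0.551 for PCK1. In experiment 2 it was 0.223 for ACS3, 0.455 for CIS2, 0.251 for ICL1, 0.203 for MAS1 and 0.253 for PCK1. In CPM, every gene had the lower ratio in experiment 2, where all 5 were past 2-fold, against 1 of 5 in experiment 1. ACS3 lay just short of 2-fold in experiment 1, at 0.501. TMM factors were higher in Fe− than in Fe+ in experiment 1 (1.39 and 1.22) and in experiment 2 (0.825 and 0.785). TMM scaling would therefore lower the ratios, and the count in experiment 1 depends on the scaling. Of all genes, 17.3% were at least 2-fold lower in Fe− in experiment 2 and 8.98% in experiment 1.

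The test across genes depended on whether the experiment entered the model. Fe− and Fe+ cultures of an experiment came from a shared pre-culture, so the experiment pairs them. Without this pairing, edgeR's quasi-likelihood test called 0 of 14588 genes (0%) at a Benjamini-Hochberg adjusted p of 0.05, while 1777 genes had an unadjusted p under 0.05 and DESeq2 called 556 of 12218 genes (4.55%), with 0 of the 5 among them. Fold changes of the 5 genes (log2, Fe− over Fe+, n = 2 each) were -1.82 ± 0.74 (SE) for ACS3, -1.15 ± 0.66 for CIS2, -1.74 ± 0.77 for ICL1, -1.54 ± 0.73 for MAS1 and -1.52 ± 0.70 for PCK1, with edgeR adjusted p from 0.368 to 0.506. Once the experiment was a block in the model, 1194 genes (8.18%) passed in edgeR, 564 of them lower in Fe− (3.87%), and 4 of the 5 genes fell.

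In this paired edgeR fit, ICL1 fell by 1.81 ± 0.32 on the log2 scale (adjusted p = 0.00123) and ACS3 fell by 1.72 ± 0.41 (adjusted p = 0.0121). MAS1 fell by 1.60 ± 0.41 (adjusted p = 0.0184) and PCK1 fell by 1.56 ± 0.40 (adjusted p = 0.0188). CIS2 had a log2 fold change of -1.15 ± 0.45 and did not pass the test (adjusted p = 0.123). With the CC-4532 pair added, edgeR called 2494 of 14250 genes (17.5%), 8.65% being lower in Fe−, and ICL1, MAS1 and PCK1 fell (adjusted p = 0.0182, 0.0317 and 0.0189), whereas ACS3 and CIS2 did not pass (adjusted p = 0.113 and 0.414). The paired calls rest on 2 or 3 pairs of libraries.

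Acetyl-CoA is also the substrate of fatty acid synthesis in the chloroplast, and 15 genes of that pathway were taken for comparison from the study's lipid list, after the data had been seen. Of these, 13 were in the matrices. Without pairing, edgeR called 0 of the 13 and DESeq2 called 6, all lower in Fe−. With pairing in edgeR, 8 fell and 0 rose in Fe− of CC-5390. BCC2, a subunit gene of acetyl-CoA carboxylase, fell by 3.40 ± 0.48 on the log2 scale (edgeR, adjusted p = 0.00012) and BCC1, another, fell by 3.08 ± 0.46 (adjusted p = 0.000239). MCT1, the malonyl transferase, fell by 3.21 ± 0.50 (adjusted p = 0.00038), and ACP2, an acyl carrier protein, fell by 2.37 ± 0.35 (adjusted p = 0.000204). The median log2 fold change was -1.99 for the 13 genes and -1.60 for the 5 acetate genes in this fit, beside -0.01 for all genes tested.

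**Figure D2:**
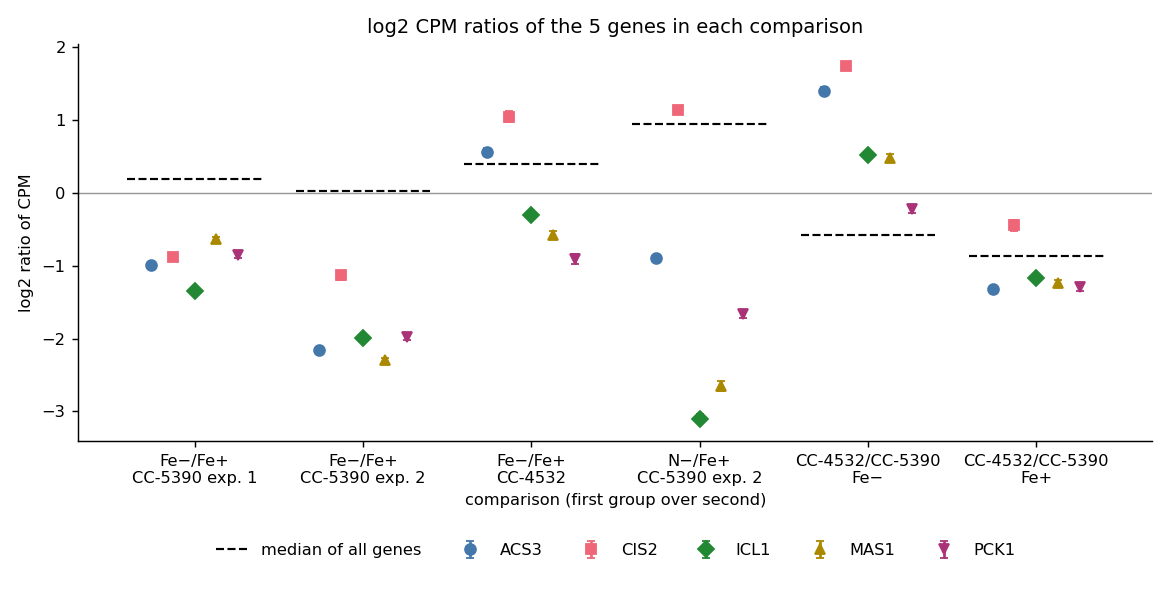
log2 ratio of CPM for each gene in 6 comparisons, the first group over the second, with 95% counting intervals, and the median of all genes in each comparison as a dashed line. The 5 genes lie below the median of all genes in both iron comparisons of CC-5390, and CIS2 lies at 1.13 beside a median of 0.95 in N−/Fe+.

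In CC-4532 the Fe−/Fe+ ratios of the 5 genes lay on both sides of 1. The Fe−/Fe+ ratio was 0.807 for ICL1 (0.786 to 0.829), 0.669 for MAS1 (0.645 to 0.694) and 0.533 for PCK1 (0.509 to 0.558). By contrast, it was 1.48 for ACS3 (1.43 to 1.53) and 2.06 for CIS2 (1.96 to 2.17). With 1 library per condition there is no test, and the median gene itself was 0.40 higher in Fe− on the log2 scale. At 2-fold, 1 of the 5 genes was higher, beside 34.4% of all genes, and 0 were lower, beside 15.3%. Scaled by TMM factors over the 9 libraries, ACS3 was at 1.09 and CIS2 at 1.52, while ICL1, MAS1 and PCK1 were at 0.594, 0.492 and 0.392. The strains' ratios were not tested against each other.

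Set against CC-5390, the walled strain had lower levels of all 5 genes in Fe+ and higher levels of 4 in Fe−. In Fe+, the CC-4532/CC-5390 ratio was 0.399 for ACS3, 0.734 for CIS2, 0.443 for ICL1, 0.424 for MAS1 and 0.407 for PCK1, so 4 of 5 were at least 2-fold lower. The background was of the same order, with 43.5% of genes at least 2-fold lower and a median log2 ratio of -0.87. After TMM scaling none of the 5 was past 2-fold, and CIS2 changed direction (1.32).

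In Fe−, CIS2 was 3.32-fold and ACS3 2.64-fold higher in CC-4532 than in CC-5390, where 9.2% of genes were at least 2-fold higher and the median log2 ratio was -0.57. ICL1 had a ratio of 1.43, MAS1 of 1.40 and PCK1 of 0.856, the last of which was 1.19 after TMM scaling. ACS3 and CIS2 lay at the 94.9th and 96.9th percentile of all genes in this comparison of single libraries.

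Nitrogen deficiency in CC-5390 was compared with Fe+ of experiment 2. ICL1 and MAS1 were lowest relative to Fe+, at ratios of 0.117 (0.112 to 0.122) and 0.160 (0.152 to 0.167) with N− R1 and R2 summed. PCK1 had a ratio of 0.315 and ACS3 of 0.538, whereas CIS2 had a ratio of 2.19 (2.11 to 2.27). At 2-fold, 3 of the 5 were lower, beside 15.7% of all genes, and 1 was higher, beside 48.9%. The counts were 4 lower and 0 higher after TMM scaling, without the 5% of cells with most UMIs, with the mean of per-cell shares, and without N− R2. TMM scaling put PCK1 at 0.146 and ACS3 at 0.248. Set against Fe− of the same experiment, N− had ratios of 0.466 for ICL1, 0.785 for MAS1, 1.24 for PCK1, 2.41 for ACS3 and 4.80 for CIS2, where the median gene was 0.94 higher in N− on the log2 scale.

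The higher CIS2 level in N− did not stand out from other genes. The median gene was 0.95 higher in N− on the log2 scale, CIS2 lay at the 53.7th percentile, and its ratio after TMM scaling was 1.01, where ICL1 was at 0.054 and MAS1 at 0.0737. ICL1 lay at the 2.94th percentile and MAS1 at the 4.22nd. The fatty acid synthesis genes were also low in N−, with 11 of 13 at least 2-fold lower and a median log2 ratio of -3.04. Exceptions among them were the condensing enzyme KAS3, at 10.4 CPM in N− against 1.57 CPM in Fe+, and the thioesterase FAT1, at 25.8 CPM in N− against 7.52 CPM in Fe+.

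Among the 5 genes, ICL1 and MAS1 differed most between the 2 N− libraries. ICL1 had 63.6 CPM in R1 and 189 CPM in R2, a ratio of 0.337, which placed it at the 0.893rd percentile of genes, and MAS1 had a ratio of 0.502. PCK1, CIS2 and ACS3 had ratios of 0.640, 0.776 and 0.809. At 2-fold, 1 of the 5 was lower in R1, beside 5.48% of all genes. With R1 alone the N−/Fe+ ratio of ICL1 was 0.0562, and with R2 alone it was 0.167.

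A small number of cells held a large share of the ICL1 transcripts of the N− libraries. Cells were counted as high in ICL1, by a limit set after seeing the data, if they had at least 3 ICL1 UMIs and at least 937 CPM, the median Fe+ cell of experiment 2. These were 15 of 3337 cells in R1 (0.450%), with 40.2% of its ICL1 UMIs, and 59 of 2064 cells in R2 (2.86%), with 77.0%. ICL1 in the remaining cells stood at 38.5 CPM in R1 and 46.2 CPM in R2, below the level of all cells by the choice itself. By the same limit, 4291 of 11558 Fe+ cells (37.1%) were high in ICL1. Deep cells meet the minimum of 3 UMIs more easily, so these shares also depend on depth. Median UMIs per cell were 1388 in R1, 2578 in R2 and 2197 in Fe+.

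The other 4 genes were higher in the same cells, but how many of all genes were higher there was not counted. MAS1 stood at 955 and 1047 CPM in the high-ICL1 cells of R1 and R2, against 61.6 and 87.7 CPM in the remaining N− cells. ACS3 stood at 1823 and 1390.2 CPM against 263 and 283 CPM, PCK1 at 619 and 649.9 CPM against 113.7 and 158 CPM, and CIS2 at 846 and 735 CPM against 277 and 343 CPM, in the same order of cells. Fe+ cells past the same ICL1 limit had 805 CPM of MAS1, 702 CPM of ACS3, 583 CPM of PCK1 and 171 CPM of CIS2, and all Fe+ cells together had 700.0, 592, 497 and 150.3 CPM of these genes. PCK1 in the high-ICL1 cells of N− thus lay near its level in those of Fe+, while CIS2 was furthest above it.

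The high-ICL1 cells carried the N deficiency list like other N− cells. The summed level of that list had a median of 15490 CPM in high-ICL1 cells of R1 and 13609 CPM in those of R2, against 16056 and 13400.3 CPM in the remaining N− cells and 1990.0 CPM in Fe+ cells. Their photosynthesis list stood at 13657 and 13146 CPM against 6247 and 4766 CPM in the remaining cells, and their N sufficiency list at 10174 and 8366 CPM against 6348 and 5930.3 CPM. They were also deeper, with medians of 6002 and 7730 UMIs per cell against 1383 and 2481, and no doublets were called, so the part of depth and of doublets in these values was not tested. After drawing 1000 UMIs from every cell, 17 of 2179 cells in R1 (0.780%) and 42 of 1729 cells in R2 (2.43%) still had at least 2 ICL1 UMIs, against 3275 of 11201 cells (29.2%) in Fe+.

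**Figure D3:**
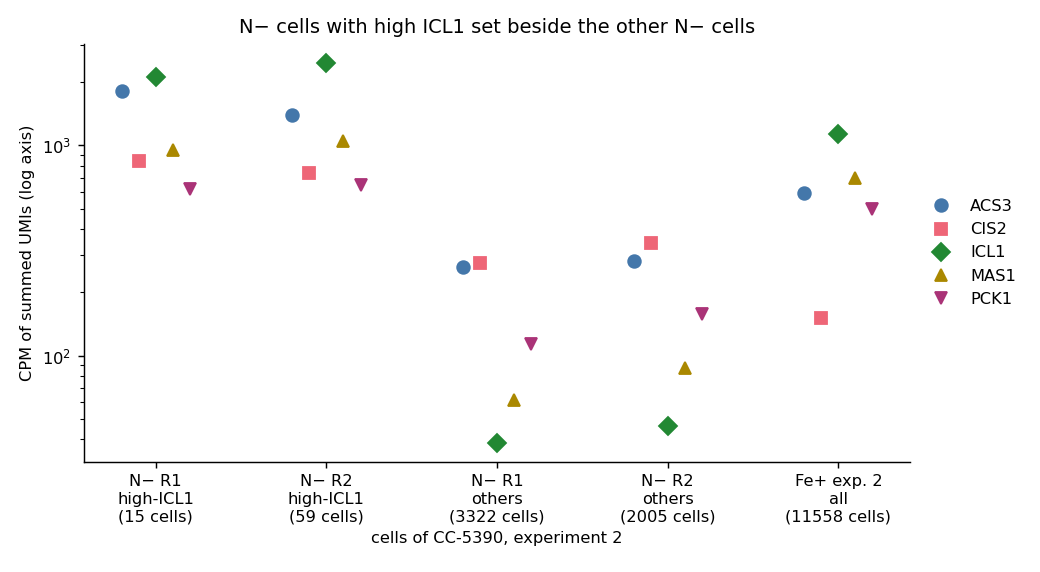
Levels of the 5 genes, in CPM on a log axis, in high-ICL1 cells of both N− libraries, in the remaining N− cells and in all Fe+ cells of experiment 2. The cells were chosen by ICL1, whose points therefore only describe the choice. MAS1 lies at 955 and 1047 CPM in the chosen cells and at 61.6 and 87.7 CPM in the others.

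The Mix library holds Fe− and Fe+ cells that were processed in 1 droplet run. Its cells were divided at the midpoint between the median iron deficiency scores of the Fe− and Fe+ libraries, into 5205 cells above and 5743 cells below, with 13.8% of cells lying within 10% of the gap between both medians from the midpoint. The score averages the study's 100 iron deficiency genes, which include none of the 5. All 5 genes were lower above the midpoint, in the direction of 40% of all genes, and none was past 2-fold, as 3.14% of all genes were.

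ICL1 stood at 1541 CPM above the midpoint and 2444 CPM below it, a ratio of 0.630 (0.620 to 0.640), and PCK1 had a ratio of 0.738, ACS3 of 0.784, MAS1 of 0.821 and CIS2 of 0.850. The median gene was 0.15 higher above the midpoint on the log2 scale. After drawing 1000 UMIs per cell, the ratios were 0.734 for ICL1, 0.887 for PCK1, 0.901 for ACS3, 0.934 for MAS1 and 0.975 for CIS2, of which the interval for CIS2 (0.882 to 1.08) included no difference. The interval of each ratio covers counting error in a single library.

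Within the Fe− libraries of CC-5390 all 5 genes were higher in the cells with the highest iron deficiency scores than in those with the lowest. How many of all genes were also higher in the highest-scoring cells was not counted. In Fe− of experiment 2, cells were split into 4 equal groups by score, and the highest-scoring group had 134 CPM of CIS2 and the lowest-scoring group 32.3 CPM, a ratio of 4.15. ACS3 had a ratio of 3.06, PCK1 of 2.28, MAS1 of 1.41 and ICL1 of 1.33. The groups between did not all follow this order, since ICL1 stood at 254, 289, 254 and 339 CPM from the lowest-scoring to the highest-scoring group. In Fe− of experiment 1 the ratios were 2.11 for CIS2, 1.97 for ACS3, 1.66 for PCK1, 1.503 for MAS1 and 1.40 for ICL1. Median UMIs per cell were 5331 in the highest and 5599 in the lowest group of experiment 2, and 2540.5 in the highest and 2174 in the lowest group of experiment 1.

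In Fe− of CC-4532, CIS2 and ACS3 had ratios of 2.27 and 1.95 between the same groups, PCK1 of 1.49 and ICL1 of 1.17, while MAS1 had 0.942. All 5 genes were instead lower in the highest-scoring group in Fe+ of CC-4532, from 0.292 for PCK1 to 0.587 for CIS2, and in both N− libraries. The groups differed in depth in these 3 libraries and in others. Median UMIs per cell in the highest and lowest group were 4515 and 6294 in Fe+ of CC-4532. They were 1134 and 2074 in N− R1, and 1769.5 and 6685 in N− R2. In Fe− of CC-4532 they were 3467 and 2573. In Fe+ of CC-5390 they were 2200 and 2667 in experiment 1, and 1981 and 2794 in experiment 2. Between the deepest and shallowest of 4 equal groups by UMIs per cell, CPM ratios were 0.674 to 0.948 in Fe+ of CC-4532. They were 0.976 to 1.66 in N− R1 and 1.99 to 6.50 in N− R2. The part of depth in the score ratios was not tested. Between the score groups, Fe+ libraries of CC-5390 had CIS2 ratios of 1.56 and 1.47 in experiments 1 and 2 and ICL1 ratios of 0.913 and 0.855. The ratios describe cells of single libraries and were given no test, and other genes were not compared between these groups.

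**Figure D4:**
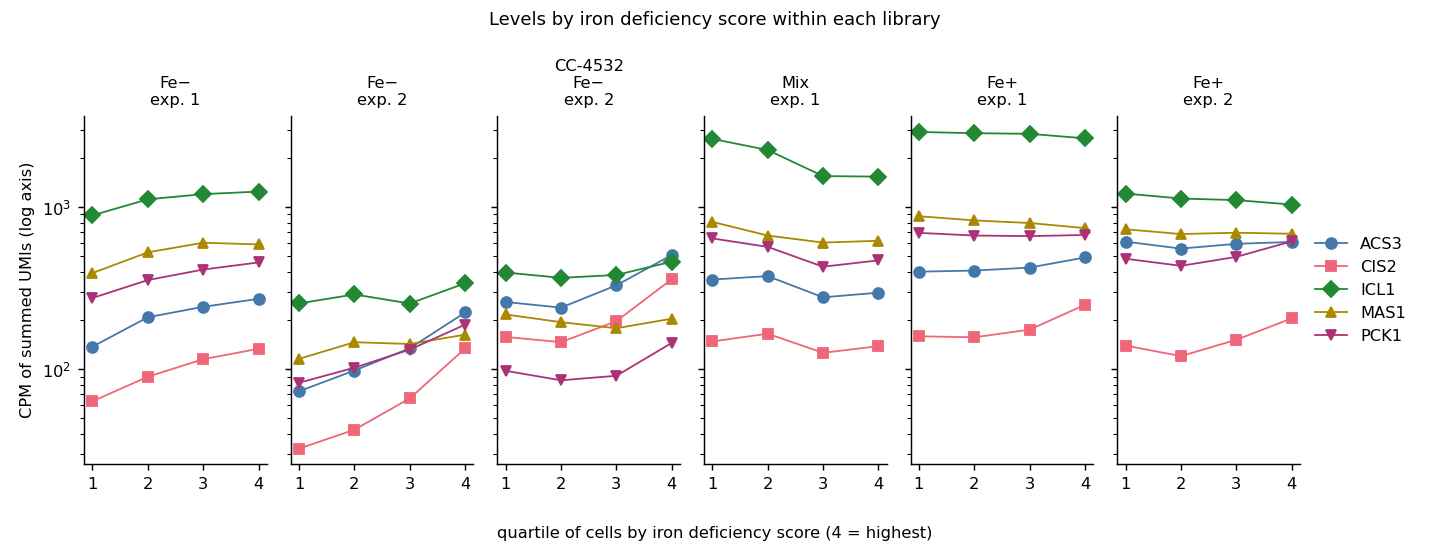
Level of each gene, in CPM on a log axis, in 4 equal groups of cells ordered by iron deficiency score, within 6 libraries. In Fe− of experiment 2, CIS2 climbs to 134 CPM in the highest group, while ICL1 in Mix is lower in the upper groups.

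Cells with none of the 5 genes made up a larger share of Fe− than of Fe+ in both experiments of CC-5390, whereas the shares in CC-4532 were close. After drawing 1000 UMIs from every cell, which left out 59 to 1505 shallower cells per library, all 5 genes were seen in 0.037% to 1.86% of cells, and none of the 5 was seen in 24.3% of Fe− cells, 7.72% of Mix cells and 2.10% of Fe+ cells of experiment 1. In experiment 2 none was seen in 55.4% of Fe− cells, in 59.9% and 58.1% of N− R1 and R2 cells, and in 8.16% of Fe+ cells. In CC-4532 it was 37.6% of Fe− cells and 35.0% of Fe+ cells. In CC-5390 of experiment 2, the cells left out were 1158 of 3337 in N− R1 and 335 of 2064 in N− R2. They were 1181 of 9291 in Fe− and 357 of 11558 in Fe+, so the N− R1 shares cover its deeper cells only.

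**Figure D5:**
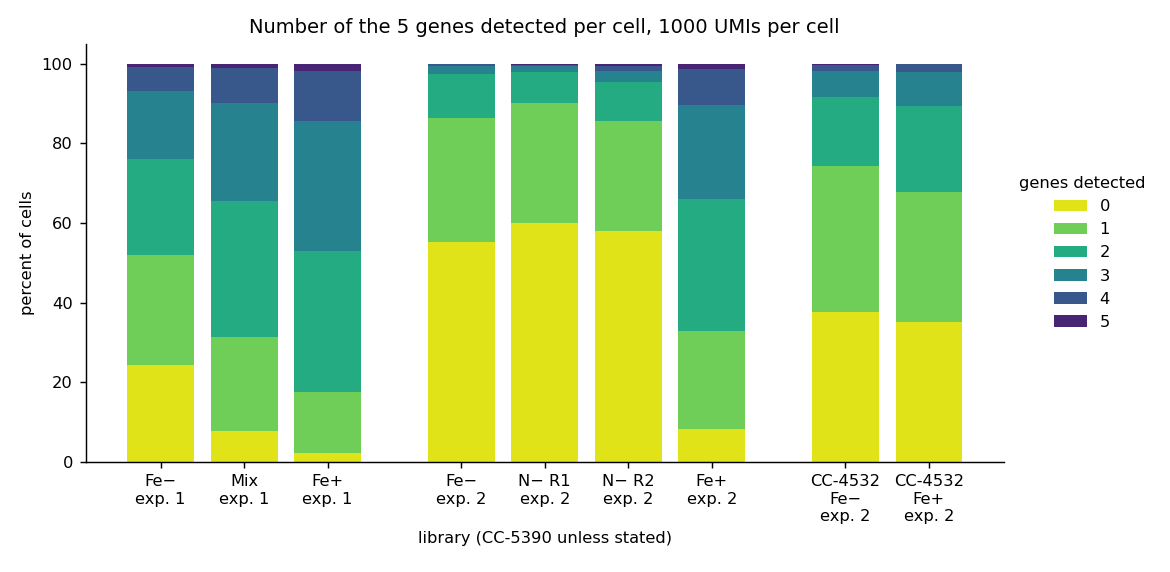
Share of cells, in percent, in which 0 to 5 of the genes had a UMI after 1000 UMIs were drawn per cell. Cells with none of the genes make up 55.4% of Fe− and 8.16% of Fe+ in CC-5390 of experiment 2, and 37.6% of Fe− and 35.0% of Fe+ in CC-4532.

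ICL1 had a UMI in 70.9% of Fe− cells against 98.3% of Fe+ cells in experiment 1 and in 44.6% against 82.3% in experiment 2. At 1000 UMIs per cell these shares were 55.3% of Fe− cells against 90.3% of Fe+ cells, and 19.4% against 62.2%. In N− R1 and R2 the shares at that depth were 2.71% (2.07 to 3.48, Clopper-Pearson) and 5.32% (4.31 to 6.49). Free RNA in droplets also gives UMIs, and cultures of a single cell type hold no cells that lack these genes to measure it by, so a share of this size cannot be told apart from background for single cells with 1 UMI.

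Pairs of the genes fell into the same cells more often than their separate shares predict. In each of the 9 libraries all 10 pairs were seen together in more cells than expected from the product of both shares, also at 1000 UMIs per cell. Pairs of other genes were not counted in this way, so the excess cannot be read as particular to these genes. At 500 UMIs per cell, which kept every cell, 1 of the 10 pairs was below its expectation in N− R1 (ACS3 and PCK1, at 0.855-fold), in Fe+ of experiment 1 (0.994-fold) and in Fe+ of CC-4532 (0.948-fold). The median excess over the 10 pairs at 1000 UMIs per cell was 1.32-fold in Fe− and 1.02-fold in Fe+ of experiment 1, 1.37-fold in Fe− and 1.07-fold in Fe+ of CC-5390 in experiment 2, and 1.35-fold in Fe− and 1.26-fold in Fe+ of CC-4532. In N− it was 1.89-fold in R1 and 2.50-fold in R2. The excess of a pair cannot be larger than the inverse of the larger of both shares. With ICL1 in 90.3% of Fe+ cells of experiment 1 and 2.71% of N− R1 cells, this limit differed widely. The size of the excess therefore cannot be compared between libraries.

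Among the 10 pairs, ICL1 and MAS1, whose enzymes act in sequence, had the largest excess in N−. They were also the least often detected of these genes in both N− libraries at 1000 UMIs per cell, which allows a larger excess. They shared 10 cells at 1000 UMIs per cell in R1, where 1.87 were expected, and 35 cells in R2, where 5.43 were expected. In Fe− of experiment 2 they shared 313 cells where 183 were expected. ACS3 and CIS2 shared 600 cells in Fe− of CC-4532 where 403 were expected. N− cells with ICL1 had 793 CPM of MAS1 in R2 and 305 CPM in R1, against 57.4 and 34.0 CPM in N− cells without it.

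Across the 9 libraries, the pattern of ICL1 was most like that of 4 genes known here by locus only, and of MAS1. On log2(CPM + 1), among 7590 genes with at least 10 CPM in some library, Pearson's r with ICL1 was 0.984 for Cre17.g707950, 0.984 for Cre05.g247950, 0.981 for Cre16.g666550, 0.979 for Cre12.g490050 and 0.976 for MAS1. PCK1 ranked 399th (r = 0.87), ACS3 ranked 2193rd (r = 0.34) and CIS2 ranked 4476th (r = -0.38). Cre17.g707950, Cre16.g666550 and Cre12.g490050 were low, with 20.2, 19.0 and 12.0 CPM in their highest library. With 10 in place of 1 added to CPM, MAS1 ranked 2nd, and Cre02.g111700 took the place of Cre12.g490050 among the first 5. The 9 points share 2 experiments and differ in depth and composition, so these values only describe likeness.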

How the data were processed

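The deposited matrices hold UMI counts per gene and cell, as the authors obtained them with Cell Ranger, per the submitters' processing notes, against the v5.5 genome. They are whole numbers without normalization. Members and lists were chosen with earlier results of these data known. All deposited cells were used, and counts were summed per library and divided by the library total (CPM). Positions come from the RefSeq annotation of the v5.5 assembly.

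Fe− and Fe+ of CC-5390 were compared in edgeR 4.0.16 (R 4.3.3) with filterByExpr, TMM factors and the quasi-likelihood test, Benjamini-Hochberg adjusted over 14588 genes. Run numbers in the labels and the shared pre-culture pair the libraries, and their deviations from group means had a correlation of 0.501 over 14588 genes. The biological coefficient of variation was 0.491 without and 0.349 with the experiment as a block. The fit was tested on simulated data with less spread between libraries than was measured here. DESeq2 1.42.0 was an alternative, as were RLE factors, library totals only, no low-count filter, the study's cell filter, leaving out the 5% of cells with most UMIs or the organelle genes, means of per-cell shares, TMM factors over 9 libraries, a minimum of 100 UMIs and each library left out. p-values measure the spread between these libraries only.

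Where a condition had 1 library, CPM ratios had exact conditional intervals and no test, over genes with at least 20 UMIs. Shares of cells had Clopper-Pearson intervals at 95% confidence. Cells were also thinned to 1000 and 500 UMIs without replacement. The iron deficiency score used 24 expression bins and 100 control genes drawn per list gene. Python 3.11.15, numpy 2.4.6, scipy 1.17.1, pandas 2.3.3 and matplotlib 3.10.9 were used. Named genes were the 5 members, the 5 genes most like ICL1 and label checks; the planned pathway list could not be matched to symbols, and fatty acid synthesis genes of the study's lipid list, chosen after the data were seen, took its place. Sequences were not analysed here.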

Additional observations from a re-analysis of the deposited data

Results flagged for a closer look

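For 2 genes the iron effect ran in opposite directions in the 2 strains. ACS3 had a log2 Fe−/Fe+ ratio of CPM of 0.56 in CC-4532, beside -0.997 and -2.16 in experiments 1 and 2 with CC-5390. CIS2 had a log2 ratio of 1.04 in CC-4532, beside -0.88 and -1.14 in CC-5390. In CC-4532 the median gene was itself 0.40 higher in Fe− on the log2 scale. ACS3 lay at the 54.5th and CIS2 at the 66.7th percentile of all genes there. With 1 pair of CC-4532 libraries the difference between strains was not tested. After TMM scaling over the 9 libraries the CC-4532 values were 0.12 for ACS3 and 0.60 for CIS2.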

How the results depend on the processing

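In the iron comparison of CC-5390, all 65 log2 fold changes of the 5 genes under 13 alternatives were below 0, from -2.40 to -0.56. Among these alternatives, the study's cell filter removed no cells from the Fe− and Fe+ libraries of CC-5390, so it returned the main values. Genes called numbered 0 without pairing, 1194 with the replicate block, 2494 with the replicate block and the CC-4532 pair, 556 in DESeq2, 79 with library totals only, 48 without a low-count filter, and, when a library was left out, 184 and 11 without Fe− of experiments 1 and 2, and 77 and 364 without Fe+ of experiments 1 and 2. Of the 5 genes, 4 were called with the replicate block and 3 with the CC-4532 pair added, and 0 under every other alternative. The count of the 5 genes at least 2-fold higher in N− was 0, in place of 1, and that at least 2-fold lower 4, in place of 3, with TMM factors, without the 5% of cells with most UMIs, with the mean of per-cell shares, and without N− R2 (0 to 1 higher when either N− library was left out). In Fe− against Fe+ of CC-4532 the count at least 2-fold higher was 0, in place of 1, with the first 3 of these settings, and TMM factors put 2 of the 5 past 2-fold lower, in place of 0. Between strains in Fe+, TMM factors put 0 of the 5 past 2-fold lower in place of 4, with 3239 genes past 2-fold in place of 6441, and a minimum of 100 UMIs left 4175. TMM scaling reversed CIS2 between strains in Fe+ (log2 ratio 0.40) and PCK1 in Fe− (0.25). Leaving out the high-ICL1 cells of N−, an alternative chosen after seeing the data, lowers ICL1 by construction and is not read as a test.

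Depth limits what single cells show. At an equal 1000 UMIs per cell, the share of cells with none of the 5 genes still differed between libraries. It ran from 2.10% in Fe+ of experiment 1 to 59.9% in N− R1. The cause of each shift with scaling was not tested. No other comparison has replicates.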
